A study of Homo sapiens with 60 samples.

Results

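The genes described here are 35 members of the protein-folding and degradation machinery of the endoplasmic reticulum (ER), taken by symbol from a gene table of herb-treated SW1783 cells. They are 35 of the 60675 gene identifiers in that table, and all 35 were among the 18578 genes that passed the filter on low counts and were tested. By role they comprise 7 chaperones and co-chaperones (HSPA5, HSP90B1, HYOU1, DNAJB9, DNAJB11, DNAJC3, SDF2L1), 2 lectin chaperones (CALR, CANX) and 6 disulfide isomerases and oxidases (PDIA3, PDIA4, PDIA6, P4HB, ERO1A, ERO1B). A further 2 are secreted stress proteins (MANF, CRELD2), 9 act in ER-associated degradation or ERAD (HERPUD1, SEL1L, SYVN1, EDEM1, EDEM2, EDEM3, DERL1, DERL2, DERL3) and 2 are translocon subunits (SEC61A1, SEC61B). The remaining 7 are stress sensors and transcription factors (ATF6, ATF6B, ERN1, EIF2AK3, XBP1, CREB3L1, CREB3L2).

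Proteins bound for the cell surface or the outside enter the ER through the SEC61 channel, and chaperones, sugar-binding lectins and disulfide isomerases fold them there, while ERAD carries misfolded chains back to the cytosol for destruction. When unfolded chains accumulate, the chaperone HSPA5 leaves the membrane sensors ERN1 (also called IRE1), EIF2AK3 (PERK) and ATF6. ERN1 then splices XBP1 mRNA, EIF2AK3 slows translation, and cleaved ATF6 moves to the nucleus, where ATF6 and spliced XBP1 raise transcription of chaperone and ERAD genes.

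SW1783 is an established human astrocytoma cell line, and every culture was treated for 24 h. The ethanol extracts came from 4 single herbs, Aucklandiae Radix (6.4, 32 and 160 µg/mL), Polygalae Radix (1.2, 6 and 30 µg/mL), Saposhnikoviae Radix and Menthae Herba (20, 100 and 500 µg/mL each), and from 4 multi-herb formulas, Guibi-tang, Okbyeongpung-san, Saengmaek-san and Soyo-san (20, 100 and 500 µg/mL each). Okbyeongpung-san had 1 library a dose, Soyo-san, Polygalae Radix and Aucklandiae Radix had 2, and the other 4 extracts had 3. The vehicle group had 3 libraries of cells given DMSO, at 0.1% by the sample labels and 2% by the series text. The high dose was the concentration giving 20% inhibition in a cell assay where that lay below 500 µg/mL, and medium and low doses were 5-fold steps below it. By textbook recipe, which was not examined in these data, Guibi-tang includes Polygalae Radix and Aucklandiae Radix, Soyo-san includes Menthae Herba and Okbyeongpung-san includes Saposhnikoviae Radix. Nothing in the labels says that replicates were separate cultures, so the p-values measure the spread between libraries, which may be technical.

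The 60 mRNA libraries held 19031094 to 37686975 estimated counts each. Levels are given as counts per 1000000 (CPM) after TMM scaling, which lines up the bulk of genes between libraries. The same 3 vehicle libraries served every comparison with vehicle, and their library names carry a set of their own, so that library set and extract cannot be told apart there. Comparisons of high with low dose stayed within a set. In 10 libraries, levels relative to vehicle fell with transcript length by more than 0.15 log2 units per doubling of length. The steepest were replicate 2 of high-dose Saposhnikoviae Radix, the high-dose Okbyeongpung-san library and replicate 3 of high-dose Menthae Herba. Of 12 astrocyte and glioma markers, 5 stayed under 1 CPM in every library, with GFAP at most 0.288 and S100B at most 0.381 CPM, while VIM ran between 623 and 6330.2 CPM and CD44 between 797 and 3347.0 CPM. AQP4, ALDH1L1 and SLC1A2 were the other 3 under 1 CPM. The other markers of the list were detected, GJA1 between 82.9 and 234 CPM, SOX9 between 42.7 and 94.7, SLC1A3 between 7.13 and 33.8, CHI3L1 between 113 and 1172.3 and NES between 1.2 and 10.8 CPM. Of the lists for other cell types, summed epithelial markers reached 312 CPM, mostly KRT18 (up to 268 CPM), neuronal markers 61.1, endothelial 48.6, leukocyte 15.3 and hepatocyte 8.76 CPM.

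Chaperones and a disulfide isomerase stood highest in vehicle cells. Per kilobase of the longest protein-coding transcript, the calcium-binding lectin CALR had 924 CPM, followed by HSPA5 at 892 CPM, the membrane lectin CANX at 601 CPM, the disulfide isomerase P4HB at 600 CPM and the chaperone HSP90B1 at 545 CPM. The sensors were at the other end, with EIF2AK3 at 5.91 and ERN1 at 2.35 CPM per kilobase. The lowest was DERL3, a derlin of secretory cells, at 0.505 CPM per kilobase. The 35 genes summed to 17009.0 ± 214 CPM in vehicle (SD, n = 3).

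Promoters from RefSeq (GRCh38.p14, 250 bases before to 50 bases after the start) were matched for 32 of the 35 genes, DERL1, DERL3 and PDIA3 being the others. Because ATF6 and XBP1 act through short promoter elements, 5 motifs were searched on both strands. The ER stress response element (ERSE, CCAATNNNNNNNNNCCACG) lay in 8 of the 32 genes (CALR, CANX, CRELD2, ERO1B, HSP90B1, HSPA5, PDIA6 and XBP1), against 0.0916% of the genes with a promoter in the table. ERSE-II (ATTGGNCCACG) lay in 3 (HERPUD1, HYOU1 and SDF2L1), against 0.0696%. The right part of the ERSE alone, CCACG, lay in 22 of the 32, against 42.1% of all genes and 55.4% of the tested genes with a promoter. Its left part CCAAT lay in 26, against 39.7% and 42.7%. Both short strings are common, and the full elements contain them. The UPRE core TGACGTGG lay in 1, HYOU1, against 0.927%. Of the 32 genes, 26 have 1 promoter in the table, CANX has 4, and a gene was counted when any of its promoters held the motif. A match describes letters in this window and not binding.

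The sequences below are those of the genes on which the dose results turn. HSPA5, HSP90B1 and HYOU1 had the strongest falls at high-dose Polygalae Radix, and HERPUD1 was called higher under some extracts and lower under others. XBP1 and DNAJB9 rose at high-dose Polygalae Radix and Guibi-tang, where those chaperones fell, but not at high-dose Saposhnikoviae Radix, where they fell too. Capitals mark an ERSE in HSPA5 (chr9:125241294-125241593, minus strand), HSP90B1 (chr12:103930160-103930459, plus strand, with a reverse-strand match as the second) and XBP1 (chr22:28800520-28800819, minus strand). They mark ERSE-II in HYOU1 (chr11:119057156-119057455, minus strand) and HERPUD1 (chr16:56931892-56932191, plus strand), and CCACG on either strand in DNAJB9 (chr7:108569624-108569923, plus strand), in which neither full element was found.
HSPA5: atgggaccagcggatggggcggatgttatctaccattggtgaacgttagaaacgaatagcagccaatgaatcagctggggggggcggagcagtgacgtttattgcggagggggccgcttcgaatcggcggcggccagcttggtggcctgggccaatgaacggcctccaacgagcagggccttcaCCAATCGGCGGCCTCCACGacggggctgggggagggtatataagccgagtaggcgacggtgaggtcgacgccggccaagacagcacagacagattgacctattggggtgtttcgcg
HSP90B1: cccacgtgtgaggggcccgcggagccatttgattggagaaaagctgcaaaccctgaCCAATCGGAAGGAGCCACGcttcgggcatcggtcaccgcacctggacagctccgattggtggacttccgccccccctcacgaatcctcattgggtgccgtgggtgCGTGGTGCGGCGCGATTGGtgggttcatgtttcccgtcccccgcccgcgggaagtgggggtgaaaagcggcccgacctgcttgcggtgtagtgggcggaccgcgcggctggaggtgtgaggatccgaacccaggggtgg
HYOU1: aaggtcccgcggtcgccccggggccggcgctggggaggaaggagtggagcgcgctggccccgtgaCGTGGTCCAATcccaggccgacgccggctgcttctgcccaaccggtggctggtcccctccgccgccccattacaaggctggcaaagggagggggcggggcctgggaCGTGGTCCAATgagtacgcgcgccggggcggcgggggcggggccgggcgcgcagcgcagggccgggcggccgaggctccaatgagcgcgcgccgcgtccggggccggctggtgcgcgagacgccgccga
HERPUD1: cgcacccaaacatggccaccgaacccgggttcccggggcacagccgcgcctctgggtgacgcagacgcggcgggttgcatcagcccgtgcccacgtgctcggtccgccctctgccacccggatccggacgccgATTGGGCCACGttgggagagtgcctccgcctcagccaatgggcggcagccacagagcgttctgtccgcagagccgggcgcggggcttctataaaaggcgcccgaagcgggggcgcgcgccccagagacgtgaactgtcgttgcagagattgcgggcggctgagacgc
XBP1: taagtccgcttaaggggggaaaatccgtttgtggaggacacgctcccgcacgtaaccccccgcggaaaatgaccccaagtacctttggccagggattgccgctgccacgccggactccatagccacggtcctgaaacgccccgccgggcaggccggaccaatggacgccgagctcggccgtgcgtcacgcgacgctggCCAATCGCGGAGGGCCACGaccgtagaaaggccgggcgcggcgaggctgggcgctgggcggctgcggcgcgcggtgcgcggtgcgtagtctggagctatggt
DNAJB9: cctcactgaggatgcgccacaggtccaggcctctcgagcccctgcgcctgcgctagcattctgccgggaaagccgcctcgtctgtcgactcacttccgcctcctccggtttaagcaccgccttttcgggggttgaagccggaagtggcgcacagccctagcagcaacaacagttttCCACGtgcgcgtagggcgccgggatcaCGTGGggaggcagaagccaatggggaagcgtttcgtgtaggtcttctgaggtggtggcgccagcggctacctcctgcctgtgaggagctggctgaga
The ERSE of HSPA5 lies at bases -66 to -48 from the start and that of XBP1 at -52 to -34. XBP1 has 2 promoters in the table, and only the one shown held an ERSE. HSP90B1 has an ERSE at -194 to -176 and one at -89 to -71. ERSE-II lies at -185 to -175 and -79 to -69 in HYOU1 and at -117 to -107 in HERPUD1.

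**Figure D1:**
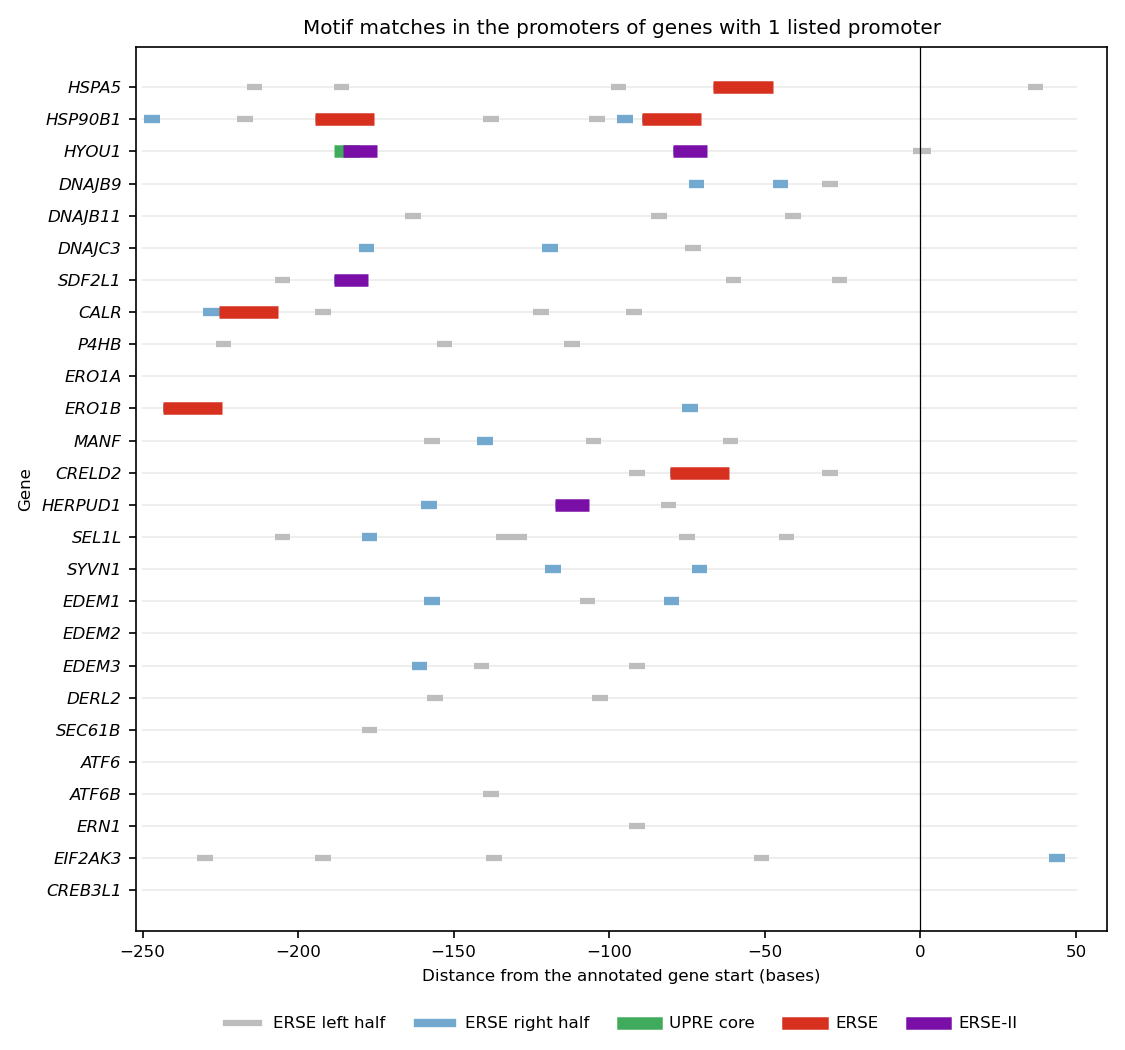
Promoter motifs of the 26 members with 1 promoter in the table, drawn against distance from the start site in bases, from 250 before to 50 after. Each row is a gene and each mark a match to the element named in the legend. The ERSE of CALR lies at -225 to -207 and that of HSPA5 nearer the start, at -66 to -48.

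Of the replicated extracts, high-dose Polygalae Radix had the most falls in the folding machinery. Of the 35 members 22 fell and 4 rose against vehicle, where 26.4% of all tested genes fell and 23.7% rose, and the median log2 fold change was -0.87 for the members and 0.04 for all tested genes. The median describes the list and was not tested. In bulk RNA, fewer cells of a kind and less RNA per cell cannot be told apart, here and in every comparison.

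HSPA5 (ENSG00000044574), the Hsp70 chaperone of the ER and the partner that holds the sensors inactive, had 402 and 397 CPM in the 2 high-dose libraries, against 3430.1, 3538.3 and 3484.5 CPM in vehicle. That is 8.72-fold lower (log2 fold change -3.12, SE 0.12, adjusted p 8.5e-23, edgeR). The groups were far apart, with no vehicle library near either treated one. HYOU1, the nucleotide exchange factor of HSPA5, had 99.5 and 87.6 CPM at the high dose against 558, 577 and 566 CPM in vehicle and fell 6.06-fold (log2 -2.60, SE 0.16, adjusted p 5.1e-17). HSP90B1, the Hsp90 of the ER, had 284 and 272 CPM against 1547.0, 1586.3 and 1535.2 CPM in vehicle and fell 5.6-fold (log2 -2.48, SE 0.12, adjusted p 1.3e-20). These are partners in one chaperone system, and all of them lay below every vehicle library.

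Both lectin chaperones, which hold glycoproteins until they fold, were lower. CALR had 380 and 343 CPM at high-dose Polygalae Radix against 1803.5, 1770.8 and 1702.6 CPM in vehicle (log2 -2.28, SE 0.17, adjusted p 8.0e-15). CANX had 684 and 709 CPM against 2427.3, 2644.6 and 2615.0 CPM (log2 -1.88, SE 0.29, adjusted p 6.1e-07). The isomerases that work with them moved the same way: PDIA3, the partner of both lectins, fell (log2 -2.08), as did PDIA4 (-2.25), P4HB (-2.01) and PDIA6 (-1.46), with adjusted p between 2.1e-20 and 2.5e-15. The oxidases that recharge them did not pass the test, with ERO1A at 154 and 155 CPM against 153, 157 and 153 CPM in vehicle (log2 -0.00, adjusted p 0.998) and ERO1B at log2 -0.17. The isomerases and the oxidases, which work in one cycle, thus had different changes. The 2 secreted proteins fell, MANF (log2 -1.08) and CRELD2 (-1.05), as did the channel subunits SEC61A1 (log2 -1.38, adjusted p 1.0e-18) and SEC61B (log2 -0.87, adjusted p 0.02).

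Among the ERAD parts, 4 of 9 fell at high-dose Polygalae Radix: SEL1L, the adaptor of the main ERAD ubiquitin ligase (log2 -1.35, adjusted p 0.00377), the mannosidase-like EDEM2 (-1.02), the ligase SYVN1 (-0.52) and the scaffold HERPUD1 (-0.40). EDEM1 (log2 -0.01), EDEM3 (0.00), DERL1 (-0.12), DERL2 (0.06) and DERL3 (-0.44) did not pass. Among the sensors, 4 of 7 fell, ATF6B (log2 -1.43), CREB3L1 (-1.41), ATF6 (-1.35) and CREB3L2 (-0.87). These 4 are membrane-bound transcription factors that are cut in the Golgi.

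The other 3 sensors and one co-chaperone rose. DNAJB9, a co-chaperone that returns HSPA5 to ERN1, had 40.5 and 49.0 CPM at high-dose Polygalae Radix against 26.3, 24.5 and 25.5 CPM in vehicle (1.76-fold, log2 0.81, SE 0.11, adjusted p 2.8e-08). ERN1, the splicing sensor, had 32.0 and 31.6 CPM against 17.9, 18.9 and 18.6 CPM (log2 0.78, SE 0.16, adjusted p 8.4e-05). XBP1, whose mRNA ERN1 splices, had 195 and 173 CPM against 121, 117 and 121 CPM (log2 0.62, SE 0.10, adjusted p 3.8e-06). None of these groups overlapped with vehicle, so within one stress pathway the ERN1, XBP1 and DNAJB9 mRNAs stood above vehicle where HSPA5 stood below. EIF2AK3, the sensor that slows translation, had 38.9 and 43.8 CPM against 26.7, 27.3 and 28.3 CPM (log2 0.59, adjusted p 0.0205). The table counts genes and not splice forms, so spliced XBP1 was not measured.

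Refits without 1 library ended 4 of these 26 calls. SEC61B was lost without high-dose replicate 2 (adjusted p 0.171) or vehicle replicate 1 (0.0518), and SYVN1 without high-dose replicate 3 (0.102). EIF2AK3 was lost without high-dose replicate 3 (0.138), vehicle replicate 1 (0.0577) or vehicle replicate 2 (0.0504), and CREB3L2 without high-dose replicate 2 (0.112), high-dose replicate 3 (0.101) or vehicle replicate 3 (0.0596). TMM scaling matters here. Library totals alone, an alternative added after seeing the data, raised the log2 fold changes of this comparison by 0.39 and gave 7 rises and 18 falls. Over all 18578 tested genes they gave 7569 rises and 2931 falls. HERPUD1 (log2 -0.01), SYVN1 (-0.14), SEC61B (-0.48) and CREB3L2 (-0.49) were no longer called, and no called sign turned. Summed astrocyte and glioma markers were 1913.4 to 2027.5 CPM at this dose against 9173.1 to 9256.1 CPM in vehicle, and mitochondrial transcripts took 11.7% and 19.2% of counts against 10.1% to 10.3%. Their part in the result was not tested.

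**Figure D2:**
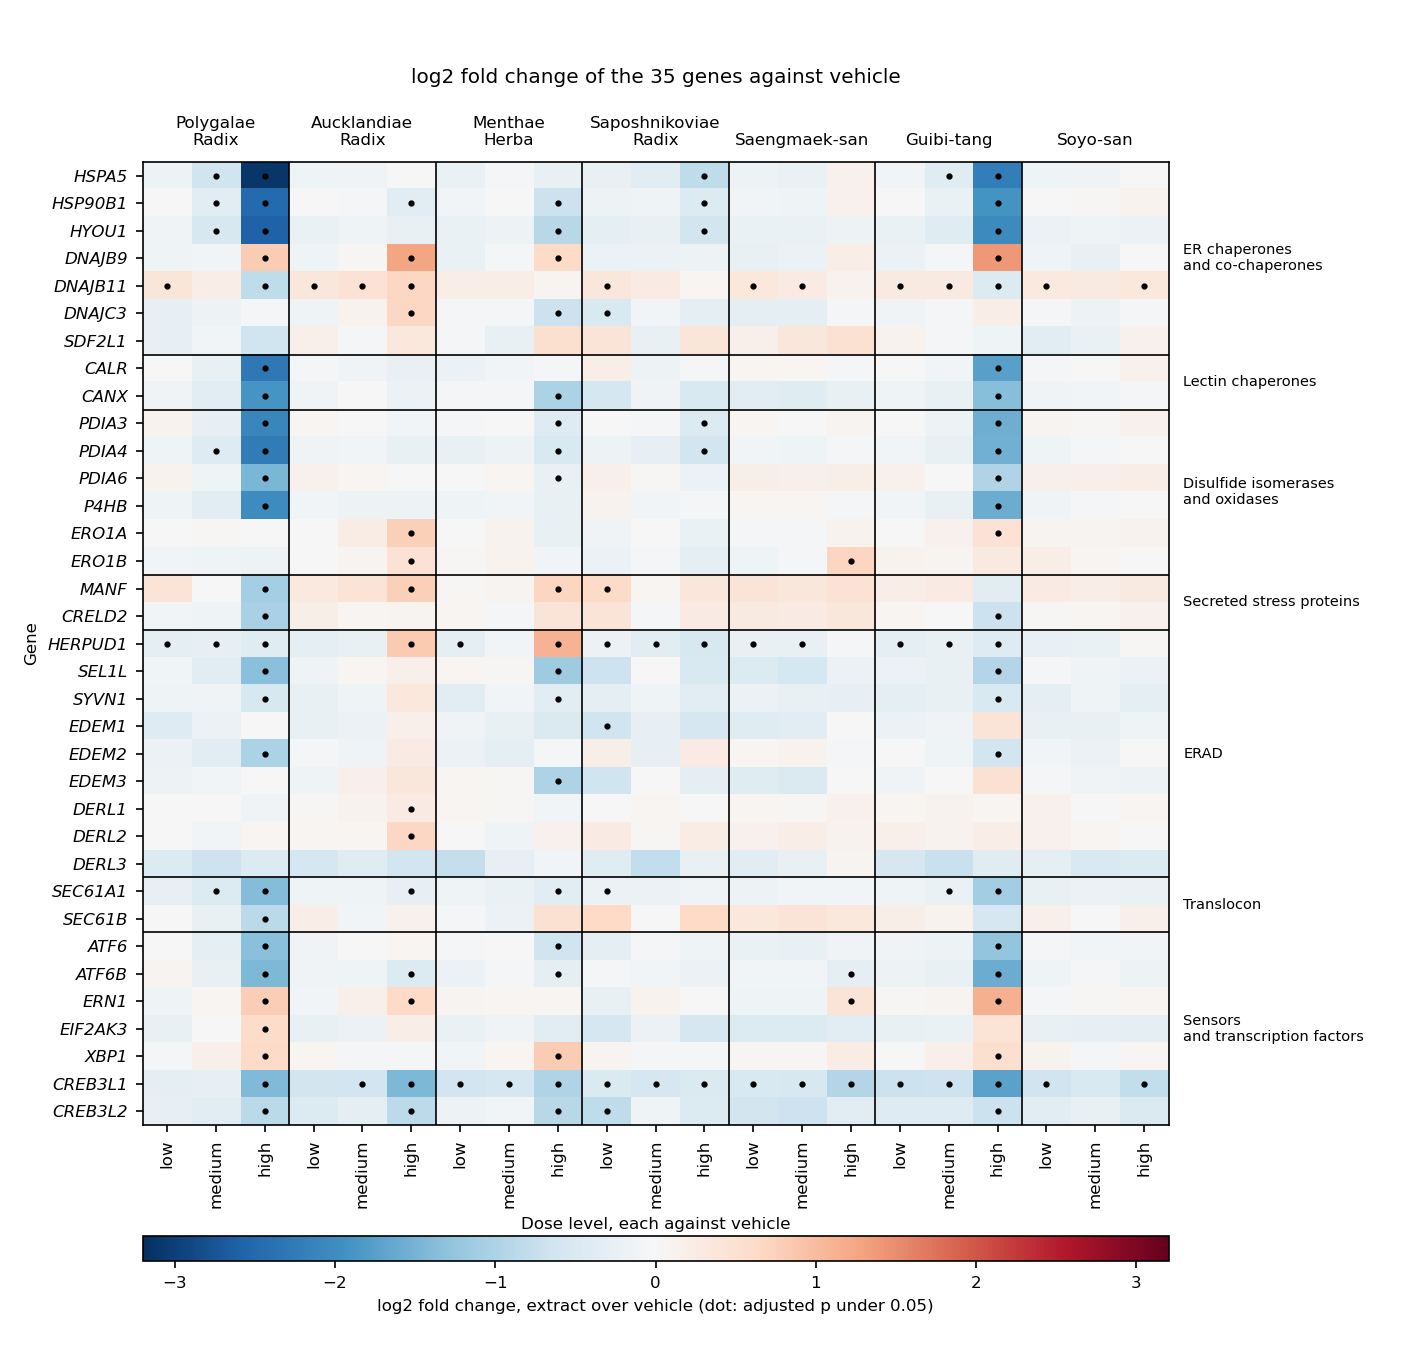
Log2 fold change of each of the 35 members (down, by role) against vehicle for each extract at low, medium and high dose (across, left to right within an extract). Blue cells are lower and red cells higher than vehicle, and dots mark an adjusted p under 0.05; the high-dose Polygalae Radix and Guibi-tang columns are mostly blue, with DNAJB9, ERN1 and XBP1 red.

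HSPA5 was already lower at the medium dose. It had 3430.1, 3538.3 and 3484.5 CPM in vehicle, 2898.7 and 3318.5 CPM at 1.2 µg/mL Polygalae Radix, 2245.6 and 2249.1 CPM at 6 µg/mL and 402 and 397 CPM at 30 µg/mL. The medium-dose libraries lay below all low-dose and vehicle libraries and above both high-dose ones. At the medium dose 6 members fell and none rose against vehicle, where 4.78% of all tested genes were called either way: HSPA5 (log2 -0.63), HYOU1 (-0.51), SEC61A1 (-0.43), PDIA4 (-0.41), HSP90B1 (-0.37) and HERPUD1 (-0.27). HERPUD1 had also been called lower at the low dose (log2 -0.29, adjusted p 0.0453), and the other 5 had not. DNAJB9 had 22.0 and 25.9 CPM at the medium dose, close to the 23.1 and 23.0 CPM at the low dose, and was not called there. Against the low dose of the same extract, a comparison that holds no vehicle library, 20 members fell and 4 rose at 30 µg/mL, where 26.2% of tested genes fell and 21.6% rose (16 and 10 members with library totals alone, where 3008 and 7029 of all 18578 tested genes did). There HSPA5 (log2 -2.96, SE 0.13, adjusted p 1.4e-21) and its co-chaperone DNAJB11 (-1.20) fell, while DNAJB9 (log2 0.96), ERN1 (0.92), EIF2AK3 (0.83) and XBP1 (0.67) rose. Of those 24 calls, EDEM2, SEC61B, SEL1L and SYVN1 were lost in at least 1 refit without a library, SYVN1 with an adjusted p of 0.309 without high-dose replicate 3 and SEC61B with 0.205 without high-dose replicate 2.

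**Figure D3:**
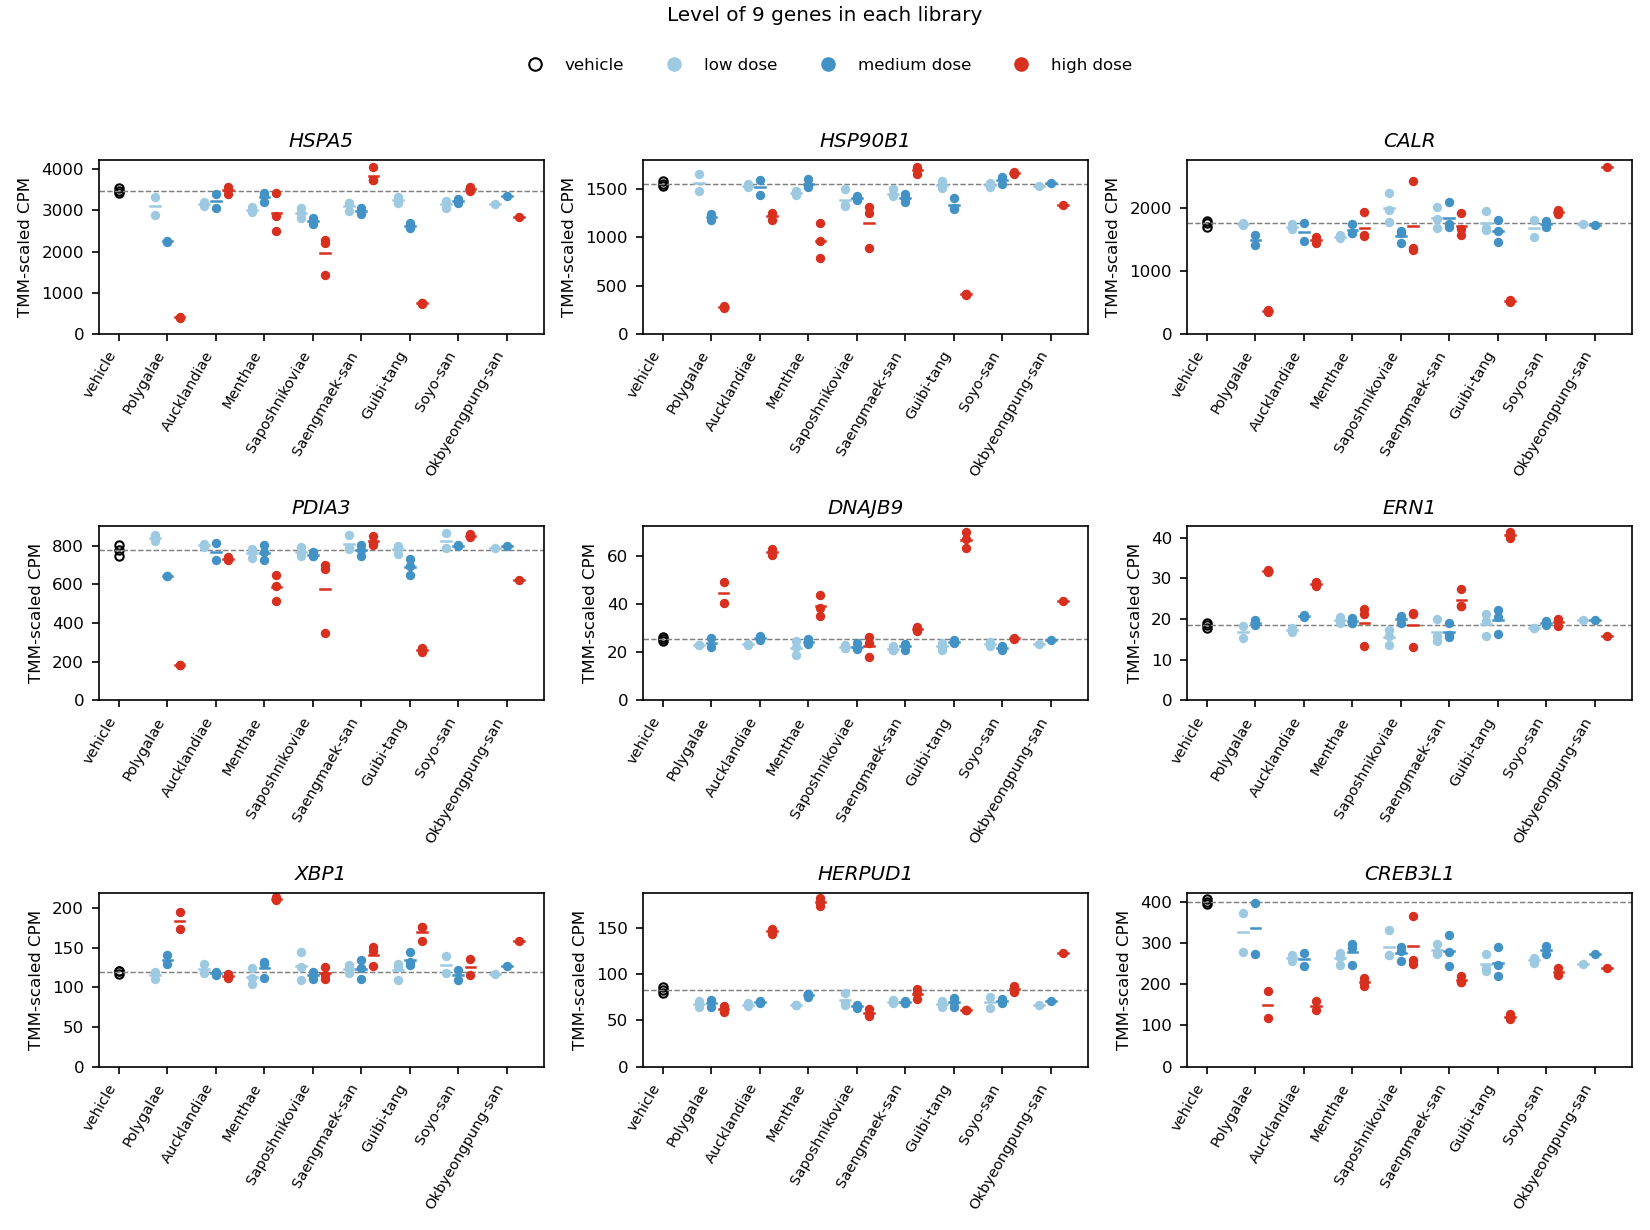
CPM of 9 members in every library, each panel a gene, with vehicle at the left and the doses of each extract from low to high; points are libraries and short bars group means. HSPA5, HSP90B1, CALR and PDIA3 drop at high-dose Polygalae Radix and Guibi-tang, DNAJB9 climbs there and at high-dose Aucklandiae Radix and Menthae Herba, and HERPUD1 climbs with the last 2 extracts.

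Guibi-tang at 500 µg/mL was the other extract with falls in most members. Against vehicle 20 members fell and 4 rose, where 27.8% of tested genes fell and 24.5% rose, with a member median of -0.54 and 0.02 for all tested genes. HSPA5 had 749, 757 and 736 CPM against 3430.1, 3538.3 and 3484.5 CPM in vehicle, 4.66-fold lower (log2 -2.22, SE 0.10, adjusted p 4.1e-21). HSP90B1 had 414, 417 and 404 CPM against 1547.0, 1586.3 and 1535.2 CPM (log2 -1.92, SE 0.10, adjusted p 1.2e-19). CALR had 531, 505 and 547 CPM against 1803.5, 1770.8 and 1702.6 CPM (log2 -1.74, SE 0.14, adjusted p 1.2e-13). Each of these lay below every vehicle library and above both high-dose Polygalae Radix libraries.

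The rises under Guibi-tang had other sizes. DNAJB9 had 69.8, 67.2 and 63.5 CPM against 26.3, 24.5 and 25.5 CPM in vehicle, 2.63-fold higher (log2 1.39, SE 0.10, adjusted p 2.0e-15). ERN1 had 41.4, 39.9 and 40.5 CPM against 17.9, 18.9 and 18.6 CPM (log2 1.14, SE 0.15, adjusted p 1.8e-08), and XBP1 had 158, 176 and 176 CPM against 121, 117 and 121 CPM (log2 0.50, adjusted p 1.8e-05). ERO1A, the oxidase that did not pass under Polygalae Radix, had 219, 207 and 213 CPM against 153, 157 and 153 CPM (log2 0.46, SE 0.10, adjusted p 1.5e-04). EIF2AK3 did not pass against vehicle (log2 0.43, adjusted p 0.0581). All of the called rises stood clear of vehicle.

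Against vehicle, leaving out any 1 of the 6 libraries ended the CREB3L2 call (adjusted p up to 0.118), and SEL1L was lost without high-dose replicate 2 (0.0513). Library totals alone raised the log2 fold changes here by 0.47 and gave 11 rises and 13 falls. Over all 18578 tested genes they gave 8819 rises and 2625 falls. DNAJB11 (log2 -0.44 with TMM, 0.03 without) and HERPUD1 (-0.42 and 0.05) turned sign, SEL1L, EDEM2, SYVN1, CREB3L2 and CRELD2 were no longer called, and the member median came to -0.07. The same shift was 0.14 for high-dose Menthae Herba (5 rises and 10 falls), 0.11 for Aucklandiae Radix (11 and 2) and for Saengmaek-san (6 and 1), and 0.09 for Soyo-san (1 and 1), and turned the sign of no call of theirs. Over all tested genes library totals gave 4187 rises and 1545 falls for Menthae Herba and 4070 and 2646 for Aucklandiae Radix. For Saengmaek-san they gave 2869 and 1021, and for Soyo-san 687 and 142. Summed astrocyte and glioma markers were 2044.3 to 2275.7 CPM at this dose against 9173.1 to 9256.1 CPM in vehicle, and their part in the result was not tested.

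Within the Guibi-tang libraries, 18 members fell and 6 rose at the high dose against the low dose, where 28.7% of tested genes fell and 24.6% rose. With library totals alone 14 members fell and 13 rose, where 3104 of all 18578 tested genes fell and 7967 rose. HSPA5 had 3250.9, 3329.6 and 3179.1 CPM at 20 µg/mL, 2641.4, 2687.9 and 2565.9 CPM at 100 µg/mL and 749, 757 and 736 CPM at 500 µg/mL, and the 3 doses did not overlap. High over low dose, its log2 fold change was -2.12 (SE 0.10, adjusted p 1.7e-20) and that of DNAJB9 was 1.58 (adjusted p 5.2e-17). The other rises were ERN1 (log2 1.10), EIF2AK3 (0.68), the mannosidase-like EDEM1 (0.61), ERO1A (0.48) and XBP1 (0.48). Refits without 1 library ended the calls of EDEM1 (adjusted p 0.064 without low-dose replicate 2), MANF (up to 0.0651) and SEC61B (up to 0.139, without low-dose replicate 2). At 100 µg/mL, 4 members fell and 1 rose against vehicle, where 7.2% of tested genes were called either way, and HSPA5 was among the falls (log2 -0.40, SE 0.10, adjusted p 0.00669).

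Polygalae Radix and Guibi-tang can be set side by side without a shared library by using each extract's own low dose. All 18 falls under Guibi-tang were among the 20 under Polygalae Radix, which also had SEL1L and SYVN1. All 4 rises under Polygalae Radix (DNAJB9, EIF2AK3, ERN1 and XBP1) were among the 6 under Guibi-tang. Over all tested genes, 26.2% fell under Polygalae Radix and 28.7% under Guibi-tang, while 21.6% and 24.6% rose. How many of those genes both extracts shared was not counted, so this overlap is not by itself a result about the members. The doses differ, 30 µg/mL of a single herb and 500 µg/mL of a mixture that by recipe holds it. The difference between the high-over-low changes, Guibi-tang minus Polygalae Radix, was called for 6 members, all positive, where 2.54% of tested genes were called higher. HSPA5 differed by 0.84 on the log2 scale (SE 0.15, adjusted p 3.8e-04), PDIA4 by 0.67 (SE 0.14, adjusted p 0.00177), DNAJB9 by 0.62 (SE 0.15, adjusted p 0.00901) and HSP90B1 by 0.59 (SE 0.15, adjusted p 0.0123). DNAJB11 and PDIA6 differed by 0.47 each. For HSPA5, HSP90B1, DNAJB11, PDIA4 and PDIA6 this is a smaller fall under Guibi-tang, and for DNAJB9 a larger rise. Without high-dose replicate 2 of Polygalae Radix, or without its low-dose replicate 3, the count of calls was 3.

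**Figure D4:**
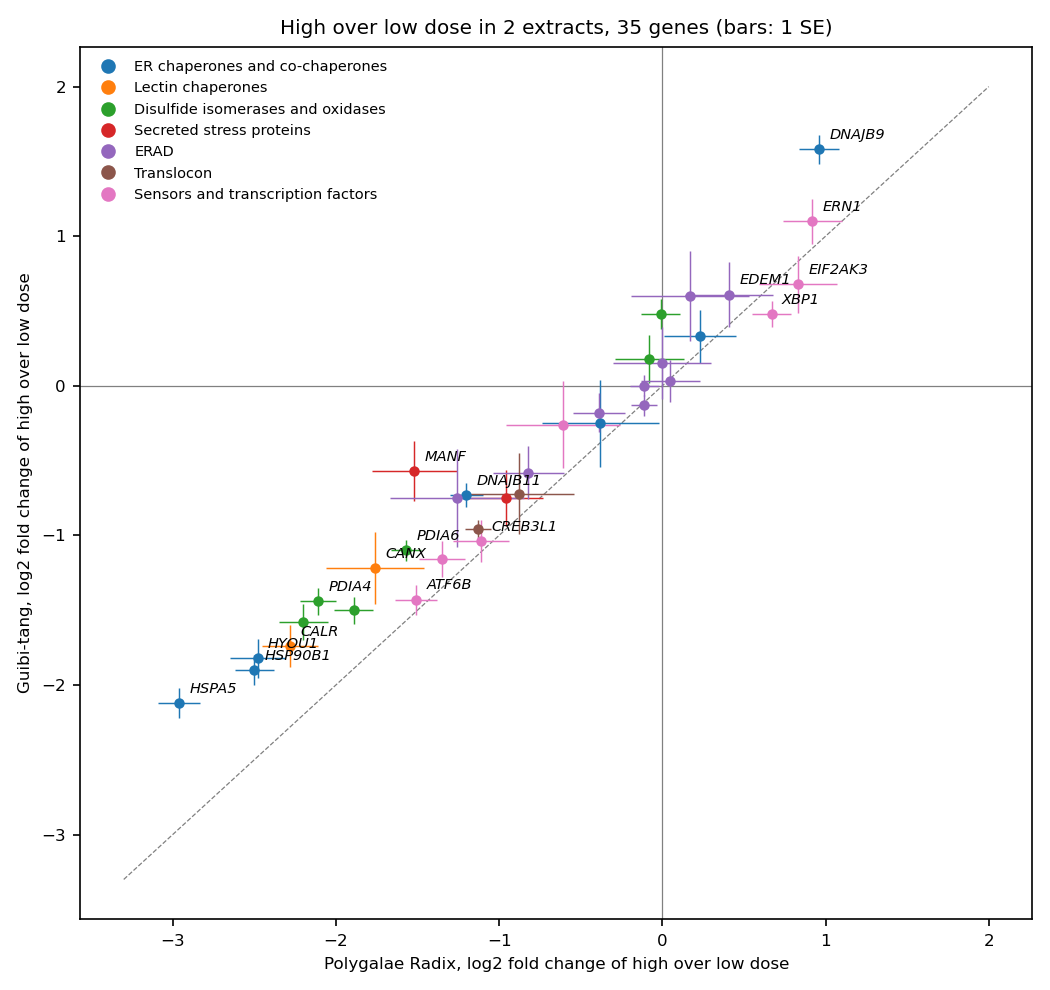
High over low dose log2 fold change of the 35 members, Guibi-tang on the vertical axis against Polygalae Radix on the horizontal, with bars of 1 SE and the line of equality. Most members lie to the lower left, HSPA5 farthest out at -2.96 for Polygalae Radix and -2.12 for Guibi-tang, while DNAJB9 and ERN1 lie in the upper right.

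Summed over the 35 genes, the level was 94.6%, 78.8% and 29.2% of the vehicle mean at low, medium and high dose of Polygalae Radix and 94.4%, 85.7% and 39.7% for Guibi-tang. Without TMM scaling the high-dose values were 38.1% and 55%. By role, high-dose Polygalae Radix left chaperones at 19%, lectins at 24.5%, isomerases and oxidases at 28.8%, translocon subunits at 40.4%, secreted proteins at 47.6%, sensors at 60.4% and ERAD parts at 73.1% of vehicle. High-dose Guibi-tang left the same roles at 29.4%, 35.2%, 40.7%, 49%, 74.6%, 59% and 89.8%. In both extracts chaperones kept the smallest share and ERAD parts the largest. Each sum follows its most abundant gene, and without HSPA5 the sums were 33.7% and 44.4% of vehicle.

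**Figure D5:**
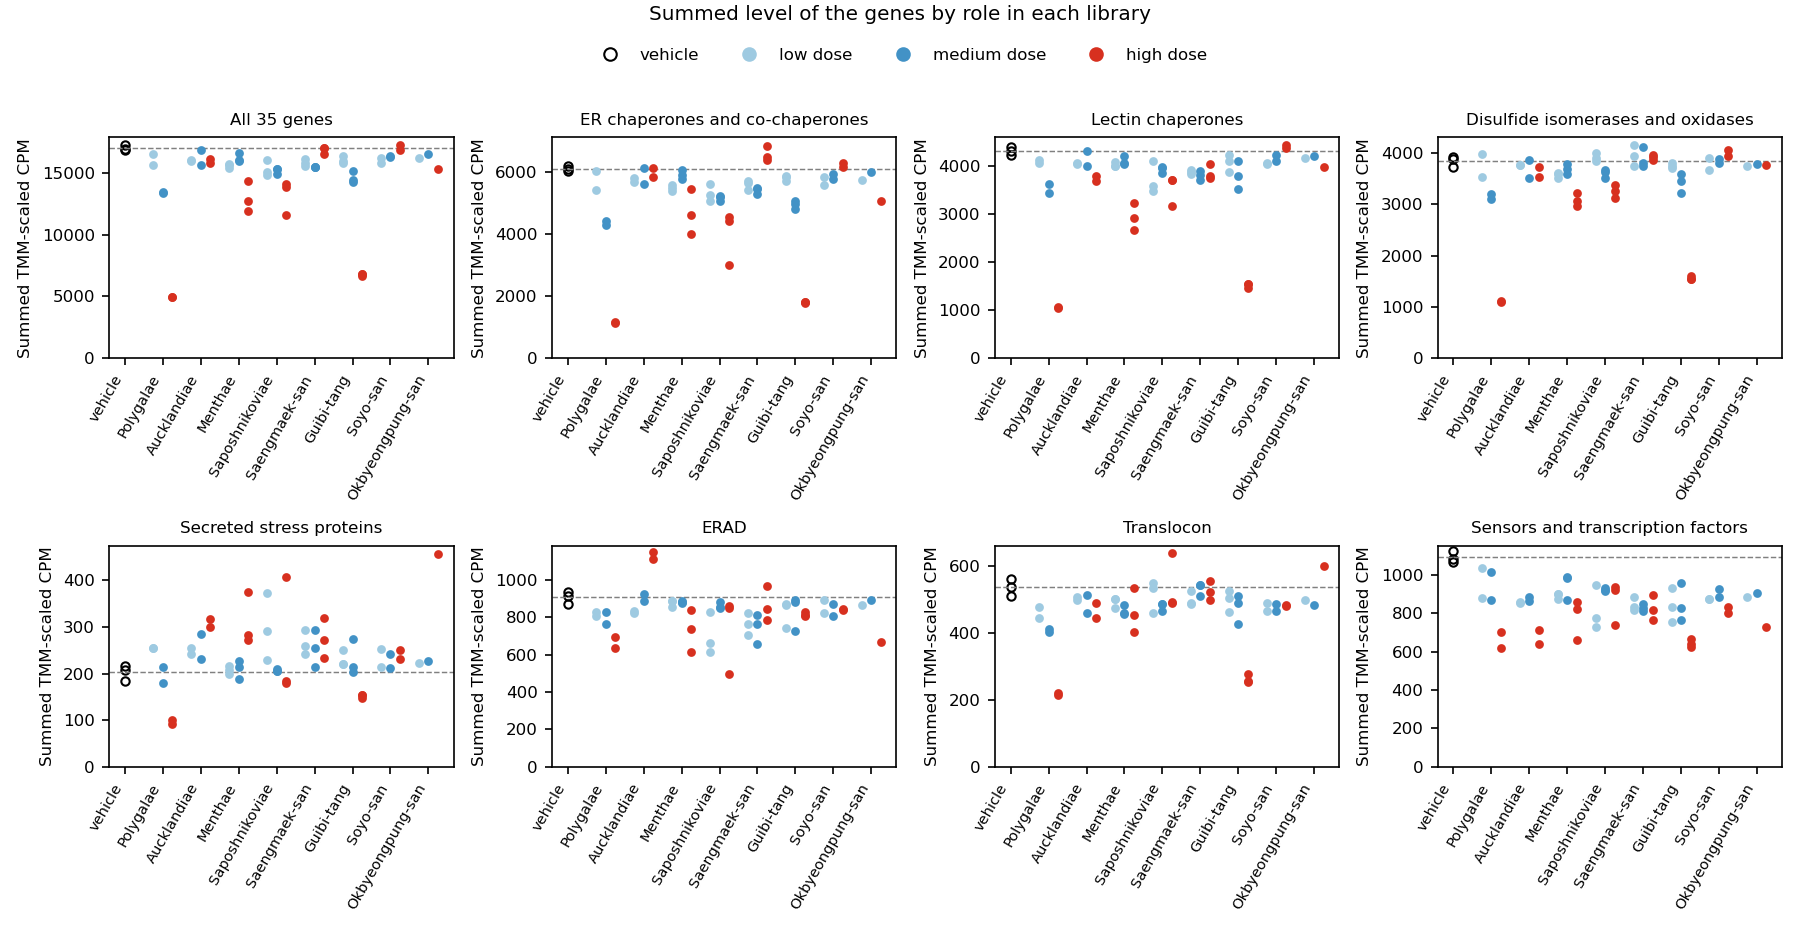
Summed CPM of the members of each role, and of all members together, by extract and dose from low to high. Points are libraries and the dashed line is the vehicle mean. The mean at high-dose Polygalae Radix was 19% of the vehicle mean for chaperones and 73.1% for ERAD parts. At high-dose Guibi-tang these were 29.4% and 89.8%.

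Aucklandiae Radix at 160 µg/mL did not lower the abundant chaperones in the same way. HSPA5 had 3397.5 and 3574.9 CPM against 3430.1, 3538.3 and 3484.5 CPM in vehicle (log2 0.00, adjusted p 0.999), and the groups overlapped. Of the 35 members 10 rose and 5 fell, where 16.5% of tested genes rose and 17.6% fell, with a member median of 0.13. DNAJB9 had 62.7 and 60.4 CPM against 26.3, 24.5 and 25.5 CPM in vehicle (2.42-fold, log2 1.27, SE 0.11, adjusted p 1.2e-12). HERPUD1, the ERAD scaffold, had 149 and 144 CPM against a vehicle mean of 82.6 ± 3.29 CPM (SD, n = 3), 1.78-fold higher (log2 0.83, SE 0.08, adjusted p 1.8e-11). ERO1A had 271 and 256 CPM against 153, 157 and 153 CPM (log2 0.77, SE 0.11, adjusted p 4.0e-07). All of these libraries lay above every vehicle library.

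The co-chaperones DNAJB11 (log2 0.67, adjusted p 4.8e-08) and DNAJC3 (0.65), the secreted MANF (0.75), the derlins DERL2 (0.65) and DERL1 (0.25), the oxidase ERO1B (0.47) and the sensor ERN1 (0.63) rose as well. The falls were CREB3L1 (log2 -1.43), CREB3L2 (-0.84), ATF6B (-0.44), HSP90B1 (-0.35) and SEC61A1 (-0.26). XBP1, which rose under Polygalae Radix, had 117 and 112 CPM here against 121, 117 and 121 CPM in vehicle. Refits without 1 library ended 8 of the 15 calls at least once, CREB3L2 (adjusted p up to 0.226) and ERO1B (up to 0.159) in all 5 refits. The others were ATF6B and DNAJC3 without high-dose replicate 3 (0.119 and 0.0729), HSP90B1, MANF and SEC61A1 without high-dose replicate 2 (0.0964, 0.0785 and 0.105), and DERL1 without either (up to 0.0712). Without high-dose replicate 2 the count of calls was 9.

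Against its own low dose, 8 members rose and 2 fell at 160 µg/mL, where 10.8% of tested genes rose and 14.2% fell. HERPUD1 had 149 and 144 CPM at the high dose against 65.6 and 68.7 CPM at the low dose (log2 1.13), and DNAJB9 had 62.7 and 60.4 CPM against 22.9 and 23.5 CPM (log2 1.41). DNAJC3 (log2 0.80), ERO1A (0.76), ERN1 (0.72), SYVN1 (0.59), DERL2 (0.58) and DNAJB11 (0.31) made up the other rises. Of these, DERL2, DNAJB11, DNAJC3 and SYVN1 were lost in at least 1 refit without a library, with adjusted p up to 0.175, HSP90B1 among the falls was lost in all 4 refits (up to 0.184), and 6 calls were left without low-dose replicate 3.

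The difference between Polygalae Radix and Aucklandiae Radix, whose libraries share a set, was tested on the high-over-low changes. It was called negative for 22 of 35 members and positive for 1, where 19.4% of tested genes were called negative and 16% positive. The differences were -3.10 for HSPA5, -2.16 for HSP90B1, -2.09 for CALR, -1.94 for MANF and -1.23 for HERPUD1, on the log2 scale. XBP1 was the positive one, at 0.78, and ERN1, which rose under both extracts, had a difference of 0.20 that did not pass. Of the 7 chaperones and co-chaperones, DNAJC3 (-0.58, adjusted p 0.148) and SDF2L1 (-0.55, adjusted p 0.437) did not pass either. Library totals alone raised the high-over-low log2 fold changes by 0.39 for Polygalae Radix and 0.05 for Aucklandiae Radix. In that setting the difference was called positive for 4898 and negative for 2243 of all 18578 tested genes.

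Menthae Herba at 500 µg/mL showed a mixed pattern. Against vehicle 4 members rose and 15 fell, where 11.2% of tested genes rose and 12.8% fell, with a member median of -0.25 and 0.02 for all tested genes. HERPUD1 had 178, 174 and 182 CPM against a vehicle mean of 82.6 ± 3.29 CPM (SD, n = 3), 2.15-fold higher (log2 1.11, SE 0.07, adjusted p 2.3e-15). XBP1 had 210, 214 and 212 CPM against 121, 117 and 121 CPM (log2 0.82, SE 0.09, adjusted p 1.0e-08). DNAJB9 had 43.9, 38.5 and 35.2 CPM against 26.3, 24.5 and 25.5 CPM (log2 0.62, SE 0.10, adjusted p 4.3e-06). HERPUD1, XBP1 and DNAJB9, with MANF (log2 0.68), stood above vehicle in every library.

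The chaperones did not follow them. HSPA5 had 3425.5, 2876.3 and 2509.7 CPM against 3430.1, 3538.3 and 3484.5 CPM in vehicle and did not pass (log2 -0.25, adjusted p 0.06). HSP90B1 had 1143.1, 957 and 783 CPM against 1547.0, 1586.3 and 1535.2 CPM (log2 -0.70, SE 0.09, adjusted p 3.8e-07), and HYOU1 fell (log2 -0.88). SEL1L (log2 -1.15), CANX (-1.02) and EDEM3 (-0.99) also fell, and for HSPA5, HSP90B1 and CANX the length-tilted replicate 3 was the lowest library. CANX had 1664.1, 1379 and 736 CPM against 2427.3, 2644.6 and 2615.0 CPM in vehicle.

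Without replicate 3 of high-dose Menthae Herba, the count of calls was 12 and 8 calls were lost, SEL1L (adjusted p 0.124), EDEM3 (0.151), CREB3L2 (0.207), SYVN1 (0.295), MANF (0.117), PDIA3 (0.108), ATF6B (0.0901) and DNAJC3 (0.0868). SYVN1 was also lost without any 1 vehicle replicate, ATF6B without vehicle replicate 1 (0.0599), and CREB3L2 and MANF without vehicle replicate 3 (0.0737 and 0.066). Without all tilted libraries of the series, the count was 22, of which 5 were higher and 17 lower, and SEL1L (log2 -0.78, adjusted p 5.2e-07), CANX (-0.75), EDEM3 (-0.68), HERPUD1 (1.10) and XBP1 (0.83) passed. With Menthae Herba and vehicle fitted alone, 8 calls were left, 4 higher and 4 lower.

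Within the Menthae Herba libraries 5 members rose and 10 fell at the high dose against the low dose, where 6.44% of tested genes rose and 10.1% fell. HERPUD1 had 178, 174 and 182 CPM at 500 µg/mL against 66.4, 66.2 and 66.6 CPM at 20 µg/mL (log2 1.42, adjusted p 1.3e-18), a clean separation. XBP1 had 210, 214 and 212 CPM against 112, 104 and 125 CPM (log2 0.90), and DNAJB9 had 43.9, 38.5 and 35.2 CPM against 18.7, 22.3 and 24.8 CPM (log2 0.83). MANF (log2 0.65) and DERL3 (0.70, adjusted p 0.0469) were the other rises, and DERL3 was lost in 5 of the 6 refits without a library (adjusted p 0.0573 to 0.333). Without high-dose replicate 3 the count of calls was 8, and the calls of CANX (adjusted p 0.0645), SEL1L (0.141), EDEM3 (0.165), DNAJC3 (0.174), MANF (0.19), PDIA3 (0.213) and DERL3 (0.333) were lost. MANF was also lost without low-dose replicate 2 (0.0716) or 3 (0.0775), and PDIA3 without low-dose replicate 1 (0.0769) or 2 (0.0663). SEC61A1 was lost without high-dose replicate 2 (0.122) or low-dose replicate 1 (0.0585) or 3 (0.0525). Without all tilted libraries there were 16 calls, 4 higher and 12 lower. DNAJB9 and HERPUD1 were the rises that Menthae Herba and Aucklandiae Radix had in common against their own low doses, 2 of 5 and 2 of 8, and HSP90B1 the common fall, 1 of 10 and 1 of 2.

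Saposhnikoviae Radix at 500 µg/mL had 7 falls and no rise among the members against vehicle, where 4.32% of tested genes fell and 9.46% rose. HSPA5 had 2274.7, 1434.4 and 2214.3 CPM against 3430.1, 3538.3 and 3484.5 CPM in vehicle (1.76-fold lower, log2 -0.82, SE 0.10, adjusted p 9.7e-07). All 3 libraries lay below vehicle, and the lowest was the tilted replicate 2. PDIA4 (log2 -0.60), HYOU1 (-0.58), HERPUD1 (-0.51), CREB3L1 (-0.46), HSP90B1 (-0.43) and PDIA3 (-0.43) were the other falls. Without the tilted libraries HSPA5 (log2 -0.64, adjusted p 3.9e-08) and HERPUD1 (-0.57) passed, PDIA3 was lost (log2 -0.17, adjusted p 0.0593), and the count was 8. Without high-dose replicate 1 there were 15 calls, without replicate 3 there were 16, and with these 2 groups fitted alone there was none (adjusted p 0.717 for the 7). CREB3L1 was lost in 5 refits without a library (up to 0.0843), HSP90B1 without high-dose replicate 2 (0.0537) and PDIA3 without it (0.192) or vehicle replicate 2 (0.0671).

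Against its low dose, high-dose Saposhnikoviae Radix lowered HSPA5 (log2 -0.57), PDIA4 (-0.44), PDIA6 (-0.36) and HERPUD1 (-0.31) and raised no member, where 0.178% of tested genes fell and 0.215% rose. These 4 calls were 17 without high-dose replicate 2, 1 without low-dose replicate 2 and 2 without low-dose replicate 3, and HERPUD1 was lost in 4 refits (adjusted p up to 0.283). PDIA4 was lost without low-dose replicate 1 (0.0518) or 2 (0.0519), and PDIA6 without low-dose replicate 2 (0.0694) or 3 (0.0736).

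The difference between Menthae Herba and Saposhnikoviae Radix, which share doses and a library set, was called positive for 5 members and negative for 5, where 4.43% and 7.61% of tested genes were (6 and 2 members with library totals alone, where 1496 and 946 of all 18578 tested genes were). HERPUD1 differed by 1.73 on the log2 scale (SE 0.10, adjusted p 3.0e-16), XBP1 by 1.00 (adjusted p 9.9e-07), MANF by 0.88, DNAJB9 by 0.79 and HSPA5 by 0.54. The negative ones were EDEM3 (-1.39), CANX (-1.06), DNAJC3 (-0.85), ATF6 (-0.72) and SEC61A1 (-0.30). At the same dose of 500 µg/mL, HERPUD1 thus stood at 174 to 182 CPM under Menthae Herba and at 55.0 to 62.5 CPM under Saposhnikoviae Radix. Leaving out Saposhnikoviae Radix high-dose replicate 2 gave 25 calls. Leaving out its high-dose replicate 1 or 3, or Menthae Herba high-dose replicate 3, gave 6 calls each, and leaving out Saposhnikoviae Radix low-dose replicate 3 gave 5.

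Saengmaek-san, a formula with neither Polygalae Radix nor Aucklandiae Radix by recipe, left the summed level at 99.1% of vehicle at 500 µg/mL. ERO1B, the less abundant ER oxidase, had 18.3, 22.3 and 21.2 CPM against a vehicle mean of 12.9 ± 0.415 CPM (SD, n = 3; log2 0.68, SE 0.17, adjusted p 0.00329). ERN1 rose (log2 0.41, adjusted p 0.0419) and CREB3L1 (-0.93) and ATF6B (-0.29) fell, so that 2 members were higher and 2 lower, where 9.06% and 9.28% of tested genes were. ERN1 was lost in each refit without a library (adjusted p up to 0.15) and ATF6B in 5 (up to 0.16), and the count was 2 without any 1 vehicle library, high-dose replicate 1 or high-dose replicate 3. HSPA5 had 3733.3, 3740.0 and 4049.9 CPM against 3430.1, 3538.3 and 3484.5 CPM in vehicle, all higher, without a call. Against the low dose ERO1B (log2 0.82), ERN1 (0.55) and DNAJB9 (0.46) rose and none fell, where 2.68% of tested genes rose and 3.39% fell, and ERN1 was lost without low-dose replicate 1 (0.126) or 2 (0.0709) or high-dose replicate 2 (0.0877).

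The same dose of Guibi-tang differed from Saengmaek-san in 19 members on the high-over-low scale, 2 positive and 17 negative, where 15.5% and 21% of tested genes were (5 and 12 members with library totals alone, where 5267 and 2314 of all 18578 tested genes were). HSPA5 differed by -2.42 (SE 0.14, adjusted p 2.4e-17), HSP90B1 by -2.13 and CALR by -1.64, while DNAJB9 (1.12) and ERN1 (0.55) were the positive ones. Both formulas thus had DNAJB9 and ERN1 called higher than at their low dose, by larger amounts under Guibi-tang.

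Soyo-san at 500 µg/mL had 1 call each way against vehicle, where 1.73% of tested genes rose and 1.36% fell: DNAJB11 rose (log2 0.33, adjusted p 0.0262) and CREB3L1 fell (log2 -0.80, adjusted p 0.00178). No member was called against its low dose by edgeR or DESeq2, where edgeR called 0.296% of tested genes higher and 0.226% lower, and 1 had an unadjusted p under 0.05. DNAJB11 was lost in each refit without a library (up to 0.222) and CREB3L1 without high-dose replicate 1 (0.077). No call was left without high-dose replicate 1, and 1 without high-dose replicate 2 or any 1 vehicle library. Okbyeongpung-san has 1 library a dose. The mean of its 3 doses had the same calls, DNAJB11 higher (log2 0.33, adjusted p 0.00488) and CREB3L1 lower (log2 -0.66, adjusted p 0.0018), where 5.93% of tested genes rose and 6.18% fell (2 and 1 members with library totals alone, where 1250 and 870 of all 18578 tested genes did). Its high-dose library, which is tilted, had 41.3 CPM of DNAJB9, 123 CPM of HERPUD1, 158 CPM of XBP1 and 367 CPM of MANF, each above every vehicle library, and 1334.6 CPM of CANX and 95 CPM of SEL1L, each below. These single values have no test.

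Some members had few calls or none, which does not show that they were unchanged. SDF2L1, a partner of DNAJB11 in the HSPA5 complex, had 48.3, 41.9 and 41.7 CPM in vehicle and was called in no comparison with vehicle or with a low dose, its log2 fold changes at high dose lying between -0.63 and 0.50. It had 27.4 and 29.3 CPM at high-dose Polygalae Radix, below every vehicle library, and 108 CPM in the tilted replicate 2 of high-dose Saposhnikoviae Radix. The derlin DERL1 passed at high-dose Aucklandiae Radix alone, with other high-dose log2 fold changes down to -0.12. EDEM1 was called lower at low-dose Saposhnikoviae Radix (log2 -0.65) and higher at high over low dose of Guibi-tang (0.61), and EDEM3 was called lower under Menthae Herba, in both comparisons of its high dose. EDEM3 had 183, 179 and 172 CPM at high-dose Guibi-tang against 115, 131 and 135 CPM in vehicle, without a call. DERL3 ran between 0.723 and 2.11 CPM over all libraries, too low for small changes to be seen at this depth.

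CREB3L1, a membrane-bound transcription factor linked to collagen secretion in bone, is the member called most often. It was called lower than vehicle at the high dose of all 7 replicated extracts, with log2 fold changes from -0.46 (Saposhnikoviae Radix) to -1.72 (Guibi-tang). The vehicle libraries had 400, 394 and 408 CPM and are the same in every such comparison, so an extract effect and a property of those libraries cannot be told apart. It had 122, 115 and 128 CPM at high-dose Guibi-tang, 159 and 138 CPM at high-dose Aucklandiae Radix and 183 and 118 CPM at high-dose Polygalae Radix. At the low doses of Guibi-tang, Menthae Herba, Soyo-san, Saengmaek-san and Saposhnikoviae Radix it was already called lower, with log2 fold changes of -0.69 to -0.46. Against the low dose it passed for Polygalae Radix (log2 -1.11), Guibi-tang (-1.04) and Aucklandiae Radix (-0.83). For the other replicated extracts it was not called against the low dose, with log2 fold changes up to 0.01.

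DNAJB11 and HERPUD1 showed a similar offset at the lowest doses. DNAJB11 was called higher than vehicle at the low dose of 6 extracts, by 0.29 to 0.38 on the log2 scale, with 289 to 343 CPM in the low-dose libraries of the 7 replicated extracts against a vehicle mean of 252 ± 9.06 CPM (SD, n = 3). HERPUD1 was called lower at the low dose of 5 extracts, with log2 fold changes of -0.32 to -0.20 and 63.7 to 79.6 CPM against 82.6 ± 3.29 CPM. These 3 genes make up most of the low-dose calls, which were 1 higher and 1 lower for Polygalae Radix and 1 and 0 for Aucklandiae Radix, where 1.38% and 0.861% of tested genes were called either way. They were 0 and 2 for Menthae Herba (0.544% of tested genes), 2 and 6 for Saposhnikoviae Radix (17.9%), 1 and 2 for Saengmaek-san (4.13%), 1 and 2 for Guibi-tang (2.8%) and 1 and 1 for Soyo-san (1.74%). At medium doses they were 1 higher and 1 lower for Aucklandiae Radix (4.53% of tested genes called), 0 and 1 for Menthae Herba (1.1%), 0 and 2 for Saposhnikoviae Radix (1.21%), 1 and 2 for Saengmaek-san (4.45%) and none for Soyo-san (0.388%), by edgeR, where 6 members had an unadjusted p under 0.05 and DESeq2 called 1. Since every such comparison uses the same 3 vehicle libraries, an extract effect and a property of those libraries cannot be told apart. Without vehicle replicate 1, 2 or 3 the 21 low-dose calls became 4, 6 and 3, and the 19 medium-dose calls 7, 9 and 10. With library totals alone they were 12 (6 higher and 6 lower) and 11 (3 higher and 8 lower). Over all tested genes that setting called from 101 higher and 22 lower (Menthae Herba) to 2425 and 846 (Saposhnikoviae Radix) at low dose. At medium dose it called from 137 and 6 (Soyo-san) to 1686 and 303 (Guibi-tang). Against the low dose of the same extract, DNAJB11 fell under Polygalae Radix (log2 -1.20) and Guibi-tang (-0.73).

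Read by promoter element, the 11 members with an ERSE or ERSE-II had a median log2 fold change of -1.46 at high-dose Polygalae Radix (1 higher, 8 lower), and the 21 with neither had -0.87 (3 higher, 13 lower). At high-dose Guibi-tang the medians were -0.97 and -0.50, at Menthae Herba -0.09 and -0.35, and at Aucklandiae Radix 0.00 and 0.20. Genes with an ERSE moved both ways, since XBP1 rose under Polygalae Radix and Menthae Herba, where HSP90B1 fell. These medians were not tested.

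Of other ER genes, on lists beyond the 35, those for translocation, N-glycosylation and folding were mostly called lower under Polygalae Radix and Guibi-tang, and those for ERAD were not. Among all tested genes, 23.7% rose and 26.4% fell at high-dose Polygalae Radix, 24.5% and 27.8% at Guibi-tang, 16.5% and 17.6% at Aucklandiae Radix and 11.2% and 12.8% at Menthae Herba. Of 30 translocation and N-glycosylation genes, none rose and 23 fell at high-dose Polygalae Radix, 1 rose and 20 fell at Guibi-tang, 8 rose and 6 fell at Aucklandiae Radix and 3 rose and 15 fell at Menthae Herba. The 6 falls at Aucklandiae Radix are a share near that of all tested genes. GANAB, the glucosidase that trims glycans for the lectins, had 160 ± 18.8 CPM at high-dose Polygalae Radix (SD, n = 2) and 186 ± 12.8 CPM at Guibi-tang (n = 3), against 773 ± 14.2 CPM in vehicle (n = 3). Of 30 other folding factors, 24 fell at Polygalae Radix and 22 at Guibi-tang, with 1 rise each. Of 29 other ERAD factors, 5 rose and 10 fell at Polygalae Radix and 7 rose and 6 fell at Guibi-tang, shares near those of all tested genes, with list medians of -0.17 and -0.01 on the log2 scale. VCP, the ATPase that pulls ERAD substrates from the membrane, was among the falls, with log2 fold changes of -2.19 under Polygalae Radix and -1.61 under Guibi-tang. At Aucklandiae Radix 8 of these ERAD factors rose and none fell, among them UFD1 (log2 0.89), a cofactor of VCP, and the intramembrane protease RHBDD1 (1.06).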

How the data were processed

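Expression was measured by strand-specific mRNA sequencing in 60 libraries of SW1783 cells. The authors deposited 1 table of estimated counts per gene (expected counts); per the labels it was made from MGI libraries of RNA with an integrity number above 7. The submitters' processing notes list RSEM 1.3.3, STAR 2.7.3a, FastQC 0.11.9, Trim Galore 0.6.5 and the genome builds GRCh38 and hg38, without their roles. In the deposited estimated counts 9.62% of values were not whole, and they were rounded. Symbols were paired with 67.9% of the 60675 identifiers.

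All 60 libraries entered 1 edgeR 4.0.16 quasi-likelihood fit (R 4.3.3, limma 3.58.1, TMM scaling, robust, 25 group means, 35 residual degrees of freedom). Genes were kept by filterByExpr (minimum count 10, minimum total 15) on groups of at least 2 libraries. Tests were two-sided, with Benjamini-Hochberg adjustment over 18578 genes in each of 33 comparisons, and a gene was called at an adjusted p under 0.05. Fold changes are edgeR's, and differences between extracts are interaction terms. DESeq2 1.42.0, RLE factors, no filter, replicate blocks, refits without each library or without the tilted ones, the slope as a covariate and fits of the compared groups alone were alternatives.

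The length slope regressed each library's log2 CPM (prior count 2), relative to the vehicle mean, on log2 median transcript length of the reference annotation over 10020 genes whose log2 CPM averaged 3 or more, and -0.15 was the limit. Sequences come from RefSeq, and other summaries used Python 3.11.15 and pandas 2.3.3. The fit was also run on simulated counts in which a small part of the genes changed, up and down alike. That run cannot test TMM scaling where many genes change. The 35 members, the lists and the slope limit were chosen with earlier results of these data known. All members are named, and from other lists at most 2 called genes per list and extract with the largest change.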

Additional observations from a re-analysis of the deposited data

Results flagged for a closer look

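Opposite high-over-low changes under a pair of extracts from the same library set drew attention to 3 members. DNAJB11 had log2 -1.20 under Polygalae Radix and 0.31 under Aucklandiae Radix, a difference of -1.51 (edgeR interaction, adjusted p 9.3e-12). SYVN1 had log2 -0.39 and 0.59 in the same pair, a difference of -0.98 (adjusted p 7.0e-04). HERPUD1 had log2 1.42 under Menthae Herba and -0.31 under Saposhnikoviae Radix, a difference of 1.73 (adjusted p 3.0e-16). The SYVN1 fall under Polygalae Radix, its rise under Aucklandiae Radix, the DNAJB11 rise under Aucklandiae Radix and the HERPUD1 fall under Saposhnikoviae Radix were each lost in at least 1 refit without a library. No group had the 4 or more libraries needed to look for single outlying samples.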

How the results depend on the processing

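Of 177 called gene results against vehicle or the low dose, 53 were lost in at least 1 of 57 refits without a library and none turned sign there. By setting, 1 was lost with DESeq2, 1 with RLE factors, 29 with no low-count filter, 5 without the tilted libraries, 5 with the slope as a covariate, 7 with the Okbyeongpung-san doses as 1 group and 34 with only the compared groups fitted. With library totals alone, added after seeing the data, 30 were lost and 2 turned sign, HERPUD1 (log2 0.05) and DNAJB11 (log2 0.03) for high-dose Guibi-tang against vehicle. The cause of these changes was not tested. Whether replicate numbers pair the samples was not settled. Same-numbered deviations correlated between -0.882 and 0.9 for high and low dose (10352 genes) and between -0.629 and 0.588 with vehicle. Deviations within a group of 2 or 3 libraries depend on each other, so these correlations cannot decide it. Mitochondrial shares at low, medium and high dose of Polygalae Radix were 12.2%, 14.3% and 19.2% in replicate 2. In replicate 3 they were 7.97%, 7.78% and 11.7%. With the replicate block, 3 calls were lost, and counts of members called were 26 for Polygalae Radix and 24 for Guibi-tang against vehicle, as without it, and 14 for Aucklandiae Radix against 15 without it; the block within a library set gave 24 calls at high over low dose for both Polygalae Radix and Guibi-tang, 16 for Menthae Herba, 11 for Aucklandiae Radix, 5 for Saposhnikoviae Radix, 4 for Saengmaek-san and 0 for Soyo-san.

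Calls over all 18578 tested genes also moved with the setting, so a moved count below is not by itself a result about the members. At high-dose Aucklandiae Radix 3066 genes rose and 3279 fell in the main fit, and 4722 and 4797 without the tilted libraries. At high-dose Saposhnikoviae Radix these were 1757 and 803, then 1002 and 840. At medium-dose Menthae Herba 204 genes were called in the main fit, and 970 rose and 780 fell without those libraries. Counts of called members at high dose against vehicle moved as follows. Aucklandiae Radix (15) had 25 without the tilted libraries and 24 with the slope covariate or only the compared groups, Menthae Herba (19) 8 with only the compared groups, and Saposhnikoviae Radix (7) 13 with the slope covariate and 0 with only the compared groups. Saengmaek-san (4) had 2 with no filter, 10 without the tilted libraries or with only the compared groups, 16 with the slope covariate and 7 with library totals, and Soyo-san (2) had 1, 7, 11 and 4 in the first 4 of these settings. At high over low dose, Aucklandiae Radix (10) had 19 without the tilted libraries, 21 with the slope covariate and 20 with only the compared groups, and Menthae Herba (15) had 3 with the last. Saposhnikoviae Radix (4) had 1 with no filter, 2 without the tilted libraries, 13 with the covariate and 0 with only the compared groups, Saengmaek-san (3) had 7 without the tilted libraries, 12 with the covariate and 6 with DESeq2, and Soyo-san (0) had 1 and 2 in the first 2. The Okbyeongpung-san mean (2) had 1 with no filter, 13 with the covariate and 4 with DESeq2. Menthae Herba minus Saposhnikoviae Radix (10) had 4 with no filter and 1 with only the compared groups, and Guibi-tang minus Polygalae Radix (6) had 2 with no filter, 13 without the tilted libraries and 16 with the covariate. Over 7 extracts, medium-dose calls (19) were 5 with no filter, 64 without the tilted libraries, 67 with the covariate, 11 with the Okbyeongpung-san doses as 1 group or with library totals, 59 with only the compared groups and 29 with DESeq2. Low-dose calls (21) were 2, 46, 60, 10, 12, and 52 with no filter, without the tilted libraries, with the covariate, with those doses as 1 group, with library totals and with only the compared groups. The summed level was 38.1% unscaled and 33.7% without HSPA5 for Polygalae Radix (29.2%), and 55% and 44.4% for Guibi-tang (39.7%).

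Without 1 library, counts against vehicle ran 23 to 25 for Polygalae Radix, 9 to 13 for Aucklandiae Radix, 12 to 22 for Menthae Herba, 5 to 16 for Saposhnikoviae Radix, 2 to 4 for Saengmaek-san, 22 to 23 for Guibi-tang and 0 to 1 for Soyo-san. High over low dose they ran 21 to 23, 6 to 9, 8 to 19, 1 to 17, 2 to 3, 22 to 24 and 0 to 0 in the same order. They were 2 to 2 for the Okbyeongpung-san mean, 19 to 22 for Polygalae Radix minus Aucklandiae Radix, 5 to 25 for Menthae Herba minus Saposhnikoviae Radix, 16 to 19 for Guibi-tang minus Saengmaek-san, 3 to 7 for Guibi-tang minus Polygalae Radix, and 7 to 19 and 3 to 31 for the medium and low doses. With 2 or 3 libraries a group and 1 cell line, small changes of low genes such as DERL3 could not be resolved.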

Other observations

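Genes linked to the PERK sensor, ATF4 and CHOP, a list of 15 outside the 35 members, were mostly called higher under Menthae Herba and Aucklandiae Radix. The list includes the genes of ATF4 and CHOP themselves, and whether PERK drove any of these changes was not tested. At high-dose Menthae Herba 12 of the 15 rose and none fell against vehicle (median log2 1.88), where 11.2% of all tested genes rose and 12.8% fell. CHAC1, a glutathione-degrading enzyme, had 55.8 ± 9.9 CPM against 7.54 ± 0.56 CPM in vehicle (SD, n = 3 each; log2 2.89), and DDIT4, an inhibitor of mTOR signalling, had 377 ± 94.4 CPM against 69.5 ± 6.08 CPM (log2 2.44). At high-dose Aucklandiae Radix 10 rose and none fell (median 0.95; 16.5% and 17.6% of all tested genes), led by ATF3 (log2 1.72) and the asparagine synthetase ASNS (1.68). At Saengmaek-san 6 rose and none fell (9.06% and 9.28% of all tested genes), at Soyo-san 3 rose and none fell (1.73% and 1.36%), and at Saposhnikoviae Radix none was called either way.

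At high-dose Polygalae Radix 6 rose and 4 fell (median log2 0.28), where 23.7% of all tested genes rose and 26.4% fell. The share of falls was thus near that of all genes, and the highest log2 fold change on the list was 1.67. ASNS (11.8 ± 0.461 CPM, SD, n = 2, against 55.6 ± 1.3 CPM in vehicle, n = 3; log2 -2.24) and CHAC1 (log2 -1.72) were among the falls. At high-dose Guibi-tang 6 rose and 4 fell as well (median log2 0.15), where 24.5% of all tested genes rose and 27.8% fell. There the phosphatase subunit PPP1R15A was higher (log2 1.38) and ASNS lower (log2 -1.22). The adjusted p of each gene named here, by edgeR, was between 2.1e-16 and 3.8e-09. Of 22 genes of ATF6 processing and ER-to-Golgi transport, 18 fell and 1 rose under each of Polygalae Radix and Guibi-tang, 5 rose and 2 fell under Aucklandiae Radix, 4 rose and 9 fell under Menthae Herba and 7 rose and none fell under Saengmaek-san. The shares of all tested genes given above apply here too.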
